A study of Mus musculus with 2 samples.

Results

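The pan-neuronal differentiation genes are 43 genes that most neurons share once they leave the cell cycle, and they were chosen by name. All 43 were on the array, among 37071 gene names with a usable probe. The signal filter required a signal above 200 and a signal-to-noise ratio of 5 or more for both RNAs on both arrays. It was passed by 33 of the 43 and by 10600 genes in all.

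Newborn neurons stop dividing, exchange the progenitor cytoskeleton for neuronal tubulin, stathmins, microtubule-associated proteins and neurofilaments, and extend a growth cone. In the same period they begin to express RNA-binding proteins of the Elavl family and the proteins of transport and regulated secretion. Transcriptional regulators such as Insm1, Nhlh1 and Myt1 mark the step from a dividing neural progenitor to a postmitotic neuron. At mid-gestation the mouse forebrain and midbrain consist mainly of progenitors, and the first neurons are just appearing there.

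RNA from brain (forebrain and midbrain, per the methods) of mouse embryos at E10.5 (embryonic day) was compared on 2 arrays. Each array held Cy3-labeled RNA from a C57BL/6 wild type sample and Cy5-labeled RNA from a luxoid (Plzf lu/lu) sample, a line that carries a spontaneous mutation of Plzf in all of its cells. The labels call the arrays biological replicates. The number of embryos behind each sample is not given in the sources used here, the dyes were not exchanged, and both arrays lay on the same slide. A dye effect on a gene and an effect of genotype therefore cannot be told apart, nor can a difference in background between the C57BL/6 and luxoid embryos. In tissue RNA, a change in the number of neurons and a change in RNA per neuron cannot be told apart either. Every log2 ratio below is luxoid over wild type. The mutated gene, Zbtb16 (Plzf), which did not pass the filter, had signals of 433.2 and 546.4 in wild type and 171.8 and 210.9 in Plzf lu/lu on arrays 1 and 2, which gave log2 ratios of -1.33 and -1.37. Of the neural progenitor markers, 12 of 14 passed the filter and all 14 were well above background.

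Proneural factors of the basic helix-loop-helix class bind E-boxes, with the letters CANNTG, and several neuronal genes are known to carry such boxes near their start. Promoters of genes with a high ratio on both arrays are shown here so that their E-boxes can be seen beside the values that follow. RefSeq windows on GRCm38.p6, from 250 bases before to 50 bases after a transcription start, were matched to 29 of the 43 genes (54 windows, some of them overlapping). Of the 6 genes that exceeded 1.3-fold on both arrays, Myt1, Stmn3, Kif5c and Elavl4 were matched. For each the first listed window is shown, together with a second Elavl4 window that held more E-boxes. Lines run 5′ to 3′ along the gene, and capitals mark CANNTG.
Myt1: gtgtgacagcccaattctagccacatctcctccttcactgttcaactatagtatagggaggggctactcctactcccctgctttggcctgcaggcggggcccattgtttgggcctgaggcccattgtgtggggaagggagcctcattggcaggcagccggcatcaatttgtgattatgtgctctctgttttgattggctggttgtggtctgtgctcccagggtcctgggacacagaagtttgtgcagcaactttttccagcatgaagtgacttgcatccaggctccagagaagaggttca
Stmn3: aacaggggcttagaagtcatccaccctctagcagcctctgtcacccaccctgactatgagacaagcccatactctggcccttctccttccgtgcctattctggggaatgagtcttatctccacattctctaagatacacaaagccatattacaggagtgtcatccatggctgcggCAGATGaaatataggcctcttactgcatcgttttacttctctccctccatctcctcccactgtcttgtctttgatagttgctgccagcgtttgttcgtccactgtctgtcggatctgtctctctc
Kif5c: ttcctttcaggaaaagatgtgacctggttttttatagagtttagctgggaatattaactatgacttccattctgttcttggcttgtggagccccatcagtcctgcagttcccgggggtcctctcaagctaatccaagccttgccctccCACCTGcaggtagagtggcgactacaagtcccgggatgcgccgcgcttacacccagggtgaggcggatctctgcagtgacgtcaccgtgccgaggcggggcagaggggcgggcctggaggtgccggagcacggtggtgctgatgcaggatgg
Elavl4, first listed window: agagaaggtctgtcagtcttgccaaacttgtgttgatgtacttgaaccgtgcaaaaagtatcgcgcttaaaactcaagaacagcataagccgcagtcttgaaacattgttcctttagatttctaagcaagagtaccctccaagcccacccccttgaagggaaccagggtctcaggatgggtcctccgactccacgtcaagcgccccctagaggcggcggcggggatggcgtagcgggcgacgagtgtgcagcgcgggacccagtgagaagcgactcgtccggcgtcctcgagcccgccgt
Elavl4, other window: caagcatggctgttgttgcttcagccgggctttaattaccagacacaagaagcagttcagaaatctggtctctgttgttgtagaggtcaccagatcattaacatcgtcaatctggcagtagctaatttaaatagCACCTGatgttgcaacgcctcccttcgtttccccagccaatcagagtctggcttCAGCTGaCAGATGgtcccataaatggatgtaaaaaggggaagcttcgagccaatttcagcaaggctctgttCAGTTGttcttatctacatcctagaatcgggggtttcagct
The first Myt1 window (chr2:181763082-181763381, plus strand) held no CANNTG, and its 2 other windows held 2 and 1. The Stmn3 window (chr2:181314451-181314750, minus strand) held a single CAGATG and the Kif5c window (chr2:49619036-49619335, plus strand) a single CACCTG. The first Elavl4 window (chr4:110351862-110352161, minus strand) held none, whereas the other one shown (chr4:110287462-110287761, minus strand) held 4, of which CAGCTG and CAGATG lie 1 base apart. Searched on both strands, CANNTG occurred in 72.2% of the 54 windows and in 72.3% of all 32851 windows of this length. CAGCTG, which is also a CANNTG, occurred in windows of 10 of the 29 genes (34.5%) and of 18.3% of all 27025 genes with a window. CAGATG or its complement CATCTG occurred for 9 of the 29 (31.0%) and for 19.2% of all genes. These shares are per gene, and the 29 genes had more windows each than genes in general. Per window, CAGCTG occurred in 27.8% of the 54 and in 16.3% of all windows. CAGATG or CATCTG occurred in 27.8% and 17.2%. Overlapping windows count the same box more than once in these shares, as for CAGCTG in Celf3, Elavl2 and Elavl4. The 54 windows also had a higher median GC content, 56.7% beside 52.7% for all windows. These are matches of letters in a window and say nothing of binding.

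Neuronal genes had the higher signal in the luxoid sample more often than other genes did, but mostly on array 2. The 6 that exceeded 1.3-fold on both arrays act on the cytoskeleton, on RNA or on transcription, namely Myt1, Stmn3, Stmn4, Elavl4, Dpysl2 and Kif5c. That was 6 of the 33 (18.2%), beside 2.58% of all genes tested. None of the 33 was lower beyond 1.3-fold on both arrays, beside 0.736% of all genes. The ratio was above 1 on both arrays for 23 of the 33 (69.7%), beside 37.3% of all genes, and below 1 on both for 3 (Snap25, Celf3 and Cplx2, the last by a probe of doubtful position), beside 35.4%. The median log2 ratio of the 33 was 0.31, with 0.11 on array 1 and 0.52 on array 2, while the median over all genes was 0.01, with 0.02 and 0.00.

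No gene of the 33 had a limma adjusted p below 0.05, a level that 3 of 10600 genes reached (0.0283%). The lowest adjusted p was 0.0518, for Stmn4 and Dpysl2, and 18 of the 33 (54.5%) had an unadjusted limma p below 0.05, beside 27.8% of all genes. At a limma adjusted p below 0.1, 12 of the 33 (36.4%) were higher in Plzf lu/lu, beside 7.6% of all genes. After the arrays were scaled to each other, both Plzf lu/lu levels lay above both wild type levels for 21 of the 33 (63.6%), beside 31.1% of all genes. Myt1, Stmn3, Stmn4 and Kif5c are also in the study's own list of changed genes, which was chosen on these same samples and is not independent evidence. Without these 4 genes, 2 of 29 (Elavl4 and Dpysl2) exceeded 1.3-fold on both arrays, beside 2.55% of all genes. The median of the 29 was 0.28, beside 0.01 over all genes.

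**Figure D1:**
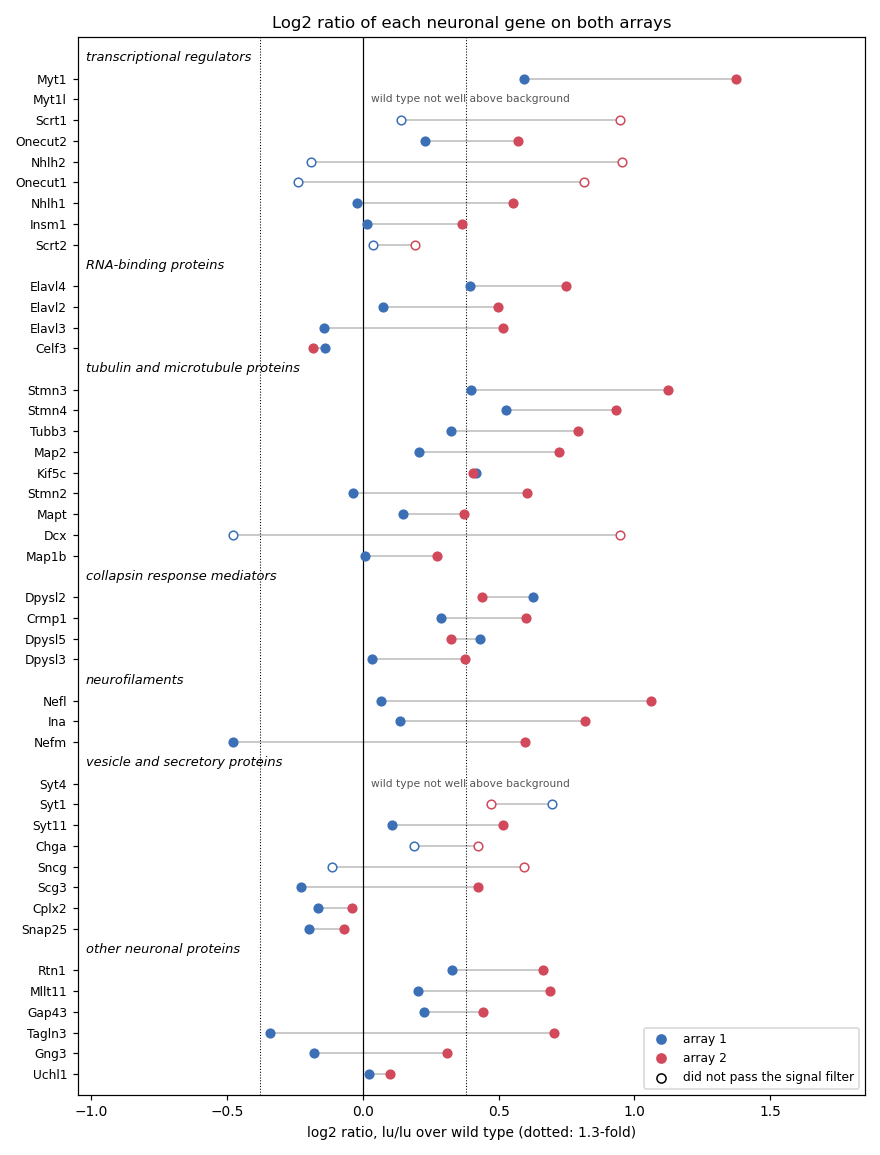
Log2 ratio of Plzf lu/lu over wild type (x axis) for each neuronal gene (rows, grouped by role) on array 1 (blue) and array 2 (red). Open points did not pass the signal filter, dotted lines mark 1.3-fold, and most red points lie to the right of the blue point of the same gene (29 of the 33 that passed).

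Among the transcriptional regulators, 4 of 9 passed the filter, and their median log2 ratio was 0.12 on array 1 and 0.56 on array 2. Myt1, a zinc finger factor of early neurons, had signals of 250 and 258.2 in wild type and 377.6 and 670.2 in Plzf lu/lu on arrays 1 and 2. Both Plzf lu/lu values were above both wild type values, and Myt1 had the highest mean log2 ratio of the 33, 0.99 ± 0.18 (limma SE, n = 2 arrays, limma adjusted p = 0.0586). A dimmer probe of Myt1 gave 0.54 and 1.07, so the 2 probes differed between the arrays in the same direction. Onecut2, a homeodomain factor of early neurons, gave 0.23 and 0.57 (limma adjusted p = 0.0918). Nhlh1, a helix-loop-helix factor of newborn neurons, gave -0.02 and 0.55. Insm1, a zinc finger factor of cells about to become neurons, gave 0.01 and 0.37. The ratios of these 4 were all higher on array 2.

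The other 5 regulators were too dim to pass. Nhlh2, a relative of Nhlh1, gave -0.19 and 0.95, and Onecut1, a relative of Onecut2, -0.24 and 0.81. The Snail-type repressors Scrt1 and Scrt2 gave 0.14 and 0.95 and 0.04 and 0.19. Myt1l, a relative of Myt1 that holds back non-neuronal genes in neurons, was not well above background in wild type on either array. On each array, wild type was set to the lowest Cy3 signal clear of background, or to its measured level where that was higher. The mean Plzf lu/lu level was then 1.41-fold higher, which is not a strict lower bound. That value rested on array 2, since the measured log2 ratio on array 1 was 0.09. The Plzf lu/lu signals of 7.55 and 21.7 were dim and unequal. Other Myt1l probes were well above background in at most 1 of the 4 channels.

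All 4 RNA-binding proteins passed. Elavl4, a neuronal RNA-binding protein that stabilizes messages, had signals of 364.7 and 356.7 in wild type and 479.8 and 599.2 in Plzf lu/lu, with no overlap between the groups. Its log2 ratios were 0.40 and 0.75 (limma adjusted p = 0.0586). Array 1 lay close to the threshold, and Elavl4 no longer exceeded 1.3-fold on that array with the GC trend removed (0.28) or with background correction and median centring (0.24). Its 2 dimmer probes gave 0.02 and -0.31 on array 1 and 0.83 and 0.63 on array 2. The related Elavl2 gave 0.08 and 0.50, and Elavl3 gave -0.14 and 0.52, with a second probe of Elavl3 at -0.11 and 0.49. Celf3, a splicing regulator of the brain, went the other way on both arrays, with -0.14 and -0.18, although a dimmer probe of it gave 0.80 and 0.34.

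Of the tubulin and microtubule proteins, 8 of 9 passed, 3 exceeded 1.3-fold on both arrays and 6 on array 2. Over all genes tested the shares were 2.58% and 4.5%. Stmn4, a stathmin that binds tubulin dimers, had signals of 1167 and 1185 in wild type and 1683 and 2262 in Plzf lu/lu. The groups did not overlap, and the log2 ratios were 0.53 and 0.93 (limma adjusted p = 0.0518). Stmn3, a stathmin attached to the Golgi, had signals of 1836 and 1491 in wild type and 2420 and 3253 in Plzf lu/lu. Its log2 ratios were 0.40 and 1.12 (limma adjusted p = 0.0779). A second Stmn3 probe, spotted 10 times, gave only 0.08 on array 1 and 0.72 on array 2, so that by this probe Stmn3 exceeded 1.3-fold on array 2 alone. Kif5c, a neuronal heavy chain of conventional kinesin, had signals of 1523 and 1742 in wild type and 2031 and 2305 in Plzf lu/lu. Unlike the stathmins, it had nearly the same ratio on both arrays, 0.41 and 0.40 (limma adjusted p = 0.0583).

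Tubb3, the neuronal beta-tubulin most often used to stain new neurons, had signals of 1491 and 1276 in wild type and 1867 and 2212 in Plzf lu/lu. The groups did not overlap, and the log2 ratios were 0.33 and 0.79 (limma adjusted p = 0.0764), short of 1.3-fold on array 1. Map2, which binds microtubules in dendrites, gave 0.21 and 0.72, and Mapt, the axonal protein tau, 0.15 and 0.37. Stmn2, the stathmin of growth cones, gave -0.04 and 0.60, and Map1b, a microtubule-associated protein of growing axons, 0.01 and 0.27. Dcx, which steadies the microtubules of migrating neurons, was too dim to pass. Its signals of 150.2 and 114.5 in wild type and 107.9 and 220.4 in Plzf lu/lu overlapped, and its ratios took opposite signs, -0.48 and 0.95.

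The collapsin response mediators, which link guidance cues to microtubules, all passed, and their ratio was above 1 on both arrays in 4 of 4. That held for 37.3% of all genes. Dpysl2 had signals of 3085 and 3344 in wild type and 4757 and 4534 in Plzf lu/lu, with no overlap. Its log2 ratios of 0.62 and 0.44 (limma adjusted p = 0.0518) made it 1 of 4 genes of the 33 with the higher ratio on array 1, with Dpysl5, Kif5c and Celf3. With background correction and loess its array 2 value was 0.36, under 1.3-fold. Dpysl5 gave 0.43 and 0.32, and Crmp1 gave 0.29 and 0.60 (limma adjusted p = 0.0691 and 0.0782). Dpysl3 gave 0.03 and 0.37 by its brightest probe, but its 2 other probes gave -0.36 and -0.30 on array 1 and 0.14 and 0.21 on array 2.

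The neurofilament genes, whose products are part of the neuronal cytoskeleton, had the widest gap between the arrays, with medians of 0.07 and 0.82. Nefm, the medium chain, had signals of 744.5 and 584.2 in wild type and 534.3 and 884.4 in Plzf lu/lu. Plzf lu/lu was thus the lower sample on array 1 and the higher on array 2 (-0.48 and 0.60), and the sign of the mean changed under 2 of the 4 other scalings. A second Nefm probe repeated this with -0.43 and 0.87. Nefl, the light chain, had signals of 384.2 and 319.5 in wild type and 402.2 and 666.8 in Plzf lu/lu, or 0.07 and 1.06, and its second probe gave 0.15 and 0.93. Ina, the internexin that joins neurofilaments in young neurons, gave 0.14 and 0.82. All 3 exceeded 1.3-fold on array 2, beside 4.5% of all genes, and none did on array 1, beside 8.25%.

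Genes of vesicles and secretion had the lowest medians of these groups of genes, with 4 of 8 passing and median log2 ratios of -0.18 on array 1 and 0.19 on array 2. Snap25, a core protein of vesicle fusion, gave -0.20 and -0.07. Syt11, a synaptotagmin of vesicle traffic, gave 0.11 and 0.52, and Scg3, a granin-binding protein of secretory granules, -0.23 and 0.42, with a mean that changed sign under 1 of the 4 other scalings. Cplx2, which clamps vesicle fusion, gave -0.17 and -0.04, and its mean changed sign under 2 of the 4 other scalings. This probe was annotated to chr19:44414679-44414738 (mm9), whereas the other Cplx2 probe lay on chromosome 13, where RefSeq places the gene, and gave -0.51 and 0.19. Of the dim genes, Chga, a granule matrix protein, gave 0.19 and 0.42, Sncg, a synuclein, -0.11 and 0.59, and Syt1, the calcium sensor of release, 0.70 and 0.47. A second probe of Syt1 gave -0.44 and -0.04. Syt4 was not well above background in wild type on either array, with 6.71 and 8.26 in Plzf lu/lu, and no fold is given for it.

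The remaining 6 genes all passed, and their ratios were all higher on array 2. Tagln3, an actin-binding protein of neurons, had signals of 583.4 and 440.3 in wild type and 459.7 and 717.1 in Plzf lu/lu, which overlapped and gave -0.34 and 0.70. Gap43, a membrane protein of growth cones, gave 0.23 and 0.44, and Rtn1, a reticulon of the neuronal endoplasmic reticulum, 0.33 and 0.66 (limma adjusted p = 0.0923 and 0.07). Mllt11, a small protein abundant in young neurons, gave 0.20 and 0.69. Gng3, a G protein gamma subunit, gave -0.18 and 0.31, and its mean changed sign under 1 of the 4 other scalings. Uchl1, a neuronal ubiquitin hydrolase, was bright in each sample, between 8867 and 9600, and its ratios of 0.02 and 0.10 were small on both arrays.

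**Figure D2:**
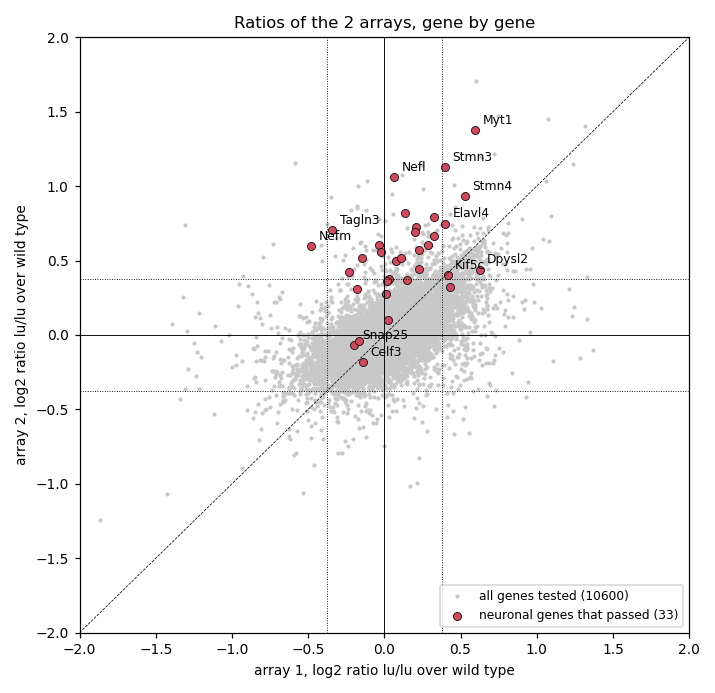
Log2 ratio on array 1 (x axis) against array 2 (y axis) for the 10600 genes that passed the filter (grey) and the 33 neuronal genes among them (red). The dashed line marks equal ratios, dotted lines mark 1.3-fold, 3 grey genes lie outside the axes, and 29 of the red points lie above the dashed line.

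The arrays differed for these genes as a group. The ratio was higher on array 2 than on array 1 for 29 of the 33 (87.9%), with a median difference of 0.40, beside 46.4% of all genes and a median of -0.01. On array 1 alone, 7 of the 33 exceeded 1.3-fold (21.2%), beside 8.25% of all genes. On array 2 alone 23 did (69.7%), beside 4.5%. A gap of more than 0.5 on the log2 scale with array 2 the higher was found for 11 of the 33 (33.3%), beside 1.73% of all genes. For 7 of the 33 the ratio was below 1 on array 1 and above 1 on array 2. None of the 33 changed sign the other way. Changes of sign in either direction were no rarer over all genes. Only 37.3% of them lay above 1 on both arrays and 35.4% below 1 on both. The share of all genes that went from below 1 on array 1 to above 1 on array 2 was not counted. Over all genes, which are not independent of each other, the Pearson correlation between the arrays was 0.55.

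The gap lay mainly in the Plzf lu/lu channel. With the 4 channels scaled to each other, the Plzf lu/lu level was higher on array 2 than on array 1 for 31 of the 33 (93.9%), by a median of 0.34, beside 45.9% of all genes. The wild type level was higher on array 2 for 13 of the 33 (39.4%), with a median of -0.05, beside 52.8% of all genes. With each channel centred on its own median in place of this scaling, the medians were 0.35 for Plzf lu/lu and -0.05 for wild type. Myt1 had the largest difference in the Plzf lu/lu channel (0.86, against 0.08 in wild type), followed by Onecut2 (0.80, against 0.46). Only Dpysl2 and Dpysl5 were lower on array 2 in Plzf lu/lu (-0.06 and -0.03).

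**Figure D3:**
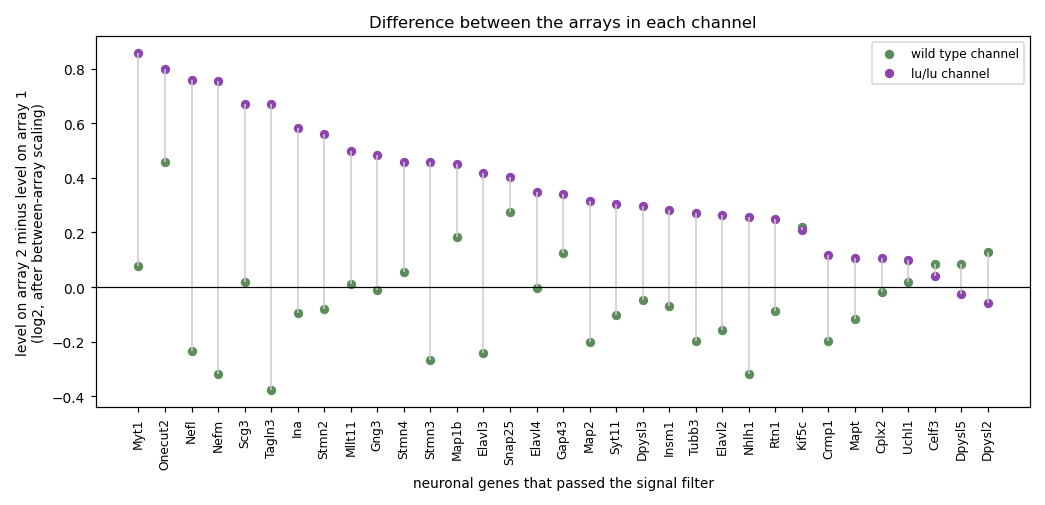
Level on array 2 minus level on array 1 (log2, y axis) of each neuronal gene that passed the filter (x axis), in the wild type channel (green) and the Plzf lu/lu channel (purple). The purple points lie above 0 for 31 of 33 genes, whereas the green points lie on both sides of 0.

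Repeated spots of the same probe showed how small the error from spot to spot was within an array. The 10 spots of the second Stmn3 probe gave a log2 ratio of 0.08 ± 0.09 (SD of spots) on array 1 and 0.72 ± 0.07 on array 2, and the lowest spot on array 2 (0.59) was above the highest on array 1 (0.21). The 9 usable spots of the Rtn1 probe gave 0.33 ± 0.07 and 0.66 ± 0.05, again without overlap. These are technical repeats of 1 RNA pair each and not replicates of the genotype. Different probes of a gene could differ by more on the same array, as the Stmn3 probes did (0.40 and 0.08 on array 1). In the direction of the gap between the arrays, other probes of the same genes gave a similar picture. Of 27 further probes, of 18 neuronal genes, that were well above background in all 4 channels, 24 had the higher ratio on array 2 (88.9%), beside 53.9% of 10666 such probes of all genes. Their median was 0.01 on array 1 and 0.39 on array 2. Of the 8 dim neuronal genes that were well above background in all 4 channels, 7 had the higher ratio on array 2, beside 52% of the 12683 such dim genes. On array 2, 7 of the 8 exceeded 1.3-fold, beside 8.17% of the dim genes.

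**Figure D4:**
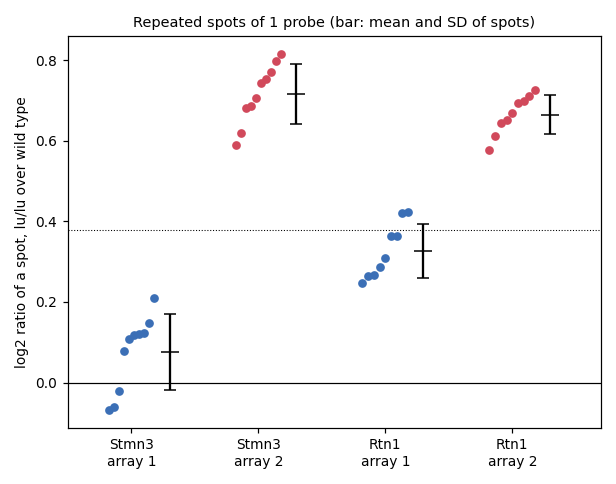
Log2 ratio of single spots (y axis) for the repeated Stmn3 probe (10 spots) and the repeated Rtn1 probe (9 usable spots) on each array, with bars for the mean and SD of the spots. The spots of array 2 (red) lie above those of array 1 (blue) for both genes.

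Neighbouring gene lists showed how far this pattern reached. Over all genes tested, 2.58% were higher and 0.736% lower beyond 1.3-fold on both arrays, shares to set beside the counts that follow. Of the early neuron transcription factors, 7 of 25 passed and 2 exceeded 1.3-fold on both arrays, the POU factor Pou3f1 (0.65 and 0.78) and Sox4 (0.53 and 0.62), which promotes neuronal gene expression. Among further tubulins and microtubule proteins, 15 of 17 passed and 1 exceeded it, Tubb2b (0.63 and 0.72), a beta-tubulin of immature neurons. Of the kinesins, 11 of 13 passed and 3 did, Kif1b (0.68 and 0.71), Kif26a (0.50 and 0.61) and the axonal motor Kif1a (0.38 and 0.60). The widest gap between the arrays among these 6 genes was 0.21, for Kif1a, and their limma adjusted p lay between 0.051 and 0.0574. Of other neuronal RNA-binding proteins 9 of 14 passed, with Nova1 (0.39 and 0.43) beyond 1.3-fold, and of synaptic and secretory genes 4 of 22 passed, with Pcsk1n (0.39 and 0.52). Of the growth cone genes 7 of 11 passed, with the adhesion molecule Ncam1 (0.45 and 0.65). None of the genes that passed in these lists was lower beyond 1.3-fold on both arrays, and none had a limma adjusted p below 0.05.

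The medians of the tubulin list (0.17 and 0.22) and of the kinesins (0.17 and 0.21) were close on the 2 arrays. That of the early neuron transcription factors was the lower on array 2 (0.50 and 0.32). Gene by gene, the ratio was higher on array 2 for 9 of 15 in the tubulin list and 9 of 11 kinesins. The same held for 5 of 7 early neuron transcription factors, beside 46.4% of all genes. Proneural factors and Notch readouts, which act before the neuron forms, had medians of -0.18 and 0.18, with 7 of 14 passing, 0 beyond 1.3-fold on both arrays and 6 of 7 higher on array 2. The REST repressor complex, which silences neuronal genes in other cells, had 8 of 10 passing and 0 beyond 1.3-fold on both arrays, with medians of 0.14 and 0.05. Rest itself gave 0.44 and 0.26. Neural progenitor markers had medians of 0.15 and 0.42, with 8 of 12 higher on array 2. Of them Cdh2 (0.60 and 0.44) and Sox2 (0.44 and 0.47) exceeded 1.3-fold on both arrays. Fabp7 (-0.41 and 0.50), Hes5 (-0.18 and 0.47) and Nes (-0.08 and 0.44) differed between the arrays much as the neurofilaments did, and were singled out after their values were seen.

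**Figure D5:**
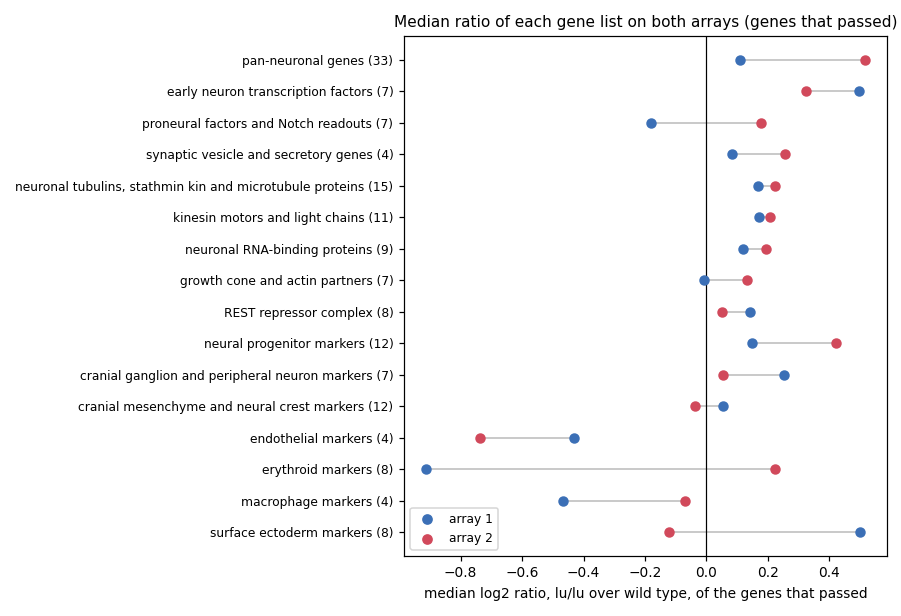
Median log2 ratio of Plzf lu/lu over wild type (x axis) on array 1 (blue) and array 2 (red) for the genes of each list that passed the signal filter (number in brackets). The pan-neuronal genes lie at 0.11 and 0.52, the progenitor markers at 0.15 and 0.42, and the erythroid markers at -0.91 and 0.22.

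Markers of other cells also differed between the samples. Summed signals below run over all genes of a list, and medians over the genes that passed. Of 18 markers of cranial ganglia and peripheral neurons, whose neurons express many of the same genes, 7 passed and 15 were well above background. Their summed signal was 12914 to 13609 in wild type and 17319 to 18236 in Plzf lu/lu, most of it from Eya1 (0.55 and 0.58), which together with Th (0.45 and 0.49) exceeded 1.3-fold on both arrays. Of the 7 that passed, 4 had a ratio above 1 on both arrays. Only Pou4f1 (-0.47 and -0.15, signals of 407.2 to 580.6) was below 1 on both. The markers Prph (7.61 to 16.1) and Isl1 (68.8 to 115.4) were dim in each sample. The median of the list was 0.25 on array 1 and 0.05 on array 2. Erythroid markers, 8 of 12 passing, had a summed signal of 482370 and 204152 in wild type and 266573 and 251295 in Plzf lu/lu, so that the wild type sample of array 1 held the most, and 7 of the 8 had the higher ratio on array 2. Hemgn (0.54 and 0.54) alone exceeded 1.3-fold on both. Endothelial markers, 4 of 15 passing, had summed signals of 5966 to 6650 in wild type and 4598 to 4970 in Plzf lu/lu and medians of -0.43 and -0.74, with Emcn and Plvap lower beyond 1.3-fold on both arrays. Macrophage markers, 4 of 12 passing, had medians of -0.47 and -0.07 and summed signals of 3122 to 4040 in wild type and 2999 to 3066 in Plzf lu/lu. Surface ectoderm markers, 8 of 12 passing, had medians of 0.50 and -0.12 and summed signals of 9480 to 13256 in wild type and 10665 to 14151 in Plzf lu/lu. Mesenchyme and neural crest markers, 12 of 17 passing, had medians of 0.05 and -0.04 and summed signals of 23728 to 25973 and 22541 to 27916. The part of these cells in the ratios of the neuronal genes was not tested. Probe base composition moved with the ratios over all genes (Spearman correlation with GC content of -0.38 on array 1 and -0.20 on array 2). With that trend removed the medians of the 33 neuronal genes were 0.08 and 0.53, and 6 exceeded 1.3-fold on both arrays, with Tubb3 in the place of Elavl4.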

How the data were processed

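Brain RNA of E10.5 wild type (Cy3) and Plzf lu/lu (Cy5) embryos was hybridized to 2 arrays. The members and all gene lists were chosen with earlier results of these data known. The authors scanned the arrays with Feature Extraction 10.7.3.1, which subtracts background and normalizes the dyes within an array. The deposited values are processed intensity per channel and a log10 ratio, and the authors' second table gives the ratio as log2.

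From these, log2 ratios of the processed intensities were taken, leaving out control and outlier spots (137 and 126 spots), with spots of a probe averaged and each gene represented by its brightest probe. All 43 members are named. For those beyond 1.3-fold on both arrays, and the 5 with the widest gap between arrays, the signals of all 4 samples are given, and of each related list up to 4 genes beyond 1.3-fold. Signals of Tubb3, Dcx, Uchl1, Syt4 and Myt1l, and the values of Rest and Pou4f1, were added after they were seen. The minimum signal, the signal-to-noise ratio and the 1.3-fold limit are those of the study's methods, but requiring them in both channels of both arrays is stricter than what is stated there. The ratios were fitted with limma 3.58.1 in R 4.3.3 (intercept, eBayes, Benjamini-Hochberg over 10600 genes, 1 residual degree of freedom), so that p-values rest mainly on spread pooled over genes. Levels between arrays were scaled with limma's Aquantile. The fit was tested on simulated data. Precision is limited by the number of arrays. Other tools were the R package data.table (version 1.17.8), pandas 2.3.3 and matplotlib 3.10.9 (Python 3.11.15).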

Additional observations from a re-analysis of the deposited data

How the results depend on the processing

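The 6 genes higher beyond 1.3-fold on both arrays numbered 23 without replicate 1 and 7 without replicate 2, where the rule then rests on 1 array. At 1.5-fold 1 gene remained (Myt1), beside 0.387% of all genes. Without the 4 genes of the study's own list, an alternative chosen after seeing the data, there were 2 of 29, beside 2.55%. Under the other settings run the count was 5 to 8. The count of genes lower beyond 1.3-fold was 0 without replicate 1 and 1 without replicate 2 (Nefm), and 0 otherwise. At a limma adjusted p below 0.05 there were 11 of the 33 after normexp background correction (offset 50) with median centring, beside 1514 of all 10600 genes, against 0 of the 33 and 3 of all genes as reported. The cause was not tested. The other settings gave 0 of the neuronal genes and 0 to 3 of all genes, with 7 to 19 neuronal genes at an unadjusted p below 0.05, beside 9.12% to 30% of all genes. The median log2 ratio was 0.52 without replicate 1 and 0.11 without replicate 2, and 0.28 to 0.34 under all other settings. The gap between the arrays was 0.35 to 0.43 under each setting in which it was recomputed. Pairing by array is built into the ratios, and the 4 channels fitted without that block gave 0 genes below an adjusted p of 0.05. Other choices were added after seeing the data, Cplx2 left out and Cplx2 by its chromosome 13 probe, and neither changed a count beyond 1.3-fold or at an adjusted p below 0.05. Without Cplx2, 28 of 32 genes had the higher ratio on array 2 and 30 of 32 the higher Plzf lu/lu level. Depth is not defined for arrays, and the 10 dim genes are limited by signal over background.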
